A study of Rattus norvegicus with 6 samples.

Results

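Mid-capillary pericytes (mcPCs), the mural cells that sit on brain capillaries, are described here by their own order of transcript abundance. They are the 3 samples labelled mcPC of the 6 in the series, the other 3 being vascular smooth muscle cells (VSMCs). Both came from cortices of male Sprague-Dawley rats aged 4 to 5 weeks, in 3 isolations that each pooled several animals. The mcPCs were what remained of a filtrate of digested cortex after cells bearing CD31, CD11b, GLAST or O4 had been removed. The VSMCs were positively sorted from dissociated arterioles by their binding of a lectin. The negative sort selects no pericyte antigen, and it does not separate mesh from thin-strand pericytes. RNA integrity numbers lay between 6.40 and 8.50.

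The data are 1 mean per gene and cell type, so no spread between samples can be given and no difference was tested. Values per sample were not used here. The level of a gene is its mean TPM (transcripts per 1000000, a read number divided by transcript length and by the library's total). In mcPCs 11 rows of hemoglobin, heme synthesis and red cell genes held 66.9% of the TPM, against 0.868% in VSMCs. They were left out, and the other 14596 of 14607 rows were scaled to a sum of 1000000, which is called rescaled TPM below. VSMC values were treated alike and stand beside the mcPC values as a description. An estimated 48.0 M reads (M for 1000000) per mcPC sample were assigned to genes, of which 28.8 M fell on the rows kept. For VSMCs these numbers were 62.0 M and 61.8 M.

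Pericytes share a basement membrane with the endothelium and are recruited to capillaries by endothelial PDGF-B acting on the receptor Pdgfrb. They contribute to the blood-brain barrier and carry an ATP-sensitive potassium channel (KATP channel) built from equal numbers of the pore subunit Kcnj8 and the sulfonylurea receptor Abcc9. Unlike smooth muscle cells, capillary pericytes away from arterioles hold little smooth muscle actin.

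The 5 pericyte markers checked against the label were all well above the median of all rows, which was 10.9 rescaled TPM. Pdgfrb stood at 1174 (rank 69), Kcnj8 at 1045 (rank 89) and Abcc9 at 969 (rank 96). Atp13a5, a P5-type ATPase, was at 723 (rank 143) and Ggt1, a gamma-glutamyltransferase of the cell surface, at 155 (rank 657). Thus 4 of the 5 were among the 500 most abundant rows, which make up 3.43% of all rows. Later counts among the first 500 are to be read against this share. In VSMCs the same genes had 621 for Pdgfrb, 17.4 for Kcnj8, 12.6 for Abcc9, 5.33 for Atp13a5 and 0.864 for Ggt1. Ggt1 was covered by 4368 reads per mcPC sample, and its level had an exact 95% Poisson interval of 152 to 157, which covers counting error only. In bulk samples fewer cells of a type and less RNA per cell cannot be told apart.

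The sequences just upstream of the markers are shown because these genes are the ones checked against the label. They are the 250 bases before the annotated start in RefSeq (GRCr8 assembly), 5′ to 3′ on the gene's strand, for the 4 markers with an entry. Capitals mark a GC box (GGGCGG) or CCAAT box (CCAAT) on either strand. TATAAA was searched as well and was found in none of the 4. Kcnj8 and Abcc9 are neighbouring genes on the same strand.
Kcnj8, chr4:177246549-177246798, minus strand: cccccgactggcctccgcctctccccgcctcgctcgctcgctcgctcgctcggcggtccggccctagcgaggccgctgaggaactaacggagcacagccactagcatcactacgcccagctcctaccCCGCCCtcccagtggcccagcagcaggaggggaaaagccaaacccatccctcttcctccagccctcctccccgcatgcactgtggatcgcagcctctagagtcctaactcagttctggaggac
Abcc9, chr4:177386349-177386598, minus strand: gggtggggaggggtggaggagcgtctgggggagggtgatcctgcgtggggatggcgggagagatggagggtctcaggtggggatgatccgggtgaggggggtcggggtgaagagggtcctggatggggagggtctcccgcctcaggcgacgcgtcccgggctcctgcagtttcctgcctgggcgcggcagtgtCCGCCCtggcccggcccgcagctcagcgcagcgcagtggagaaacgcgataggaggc
Atp13a5, chr11:84880980-84881229, plus strand: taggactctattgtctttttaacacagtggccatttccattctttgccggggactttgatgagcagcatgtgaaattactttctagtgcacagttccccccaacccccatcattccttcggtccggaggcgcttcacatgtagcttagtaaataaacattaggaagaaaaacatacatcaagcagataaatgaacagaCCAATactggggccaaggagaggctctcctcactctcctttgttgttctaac
Ggt1, chr20:13095105-13095354, minus strand: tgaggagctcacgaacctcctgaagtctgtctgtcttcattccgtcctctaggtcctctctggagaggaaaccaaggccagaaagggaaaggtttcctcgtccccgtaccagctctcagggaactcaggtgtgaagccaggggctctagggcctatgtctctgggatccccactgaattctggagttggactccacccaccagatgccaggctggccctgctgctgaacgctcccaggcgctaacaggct
The Kcnj8 and Abcc9 windows were rich in G and C (66.8% and 71.2%) and held 18 and 19 CpG dinucleotides. The Atp13a5 window had 44.4% and 4, and that of Ggt1 58.0% and 6. Over the 33469 windows of the table the medians were 51.2% and 5. A GC box lay 123 bases before the start of Kcnj8 and 57 bases before that of Abcc9, both on the opposite strand, and a CCAAT box lay 52 bases before the start of Atp13a5. A GC box was present in 30.5% of all windows, a CCAAT box in 34.0% and TATAAA in 12.9%, so a match of this kind is common.

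The mcPC profile was steep. The 10 most abundant rows held 33.6% of the rescaled TPM, the first 100 held 52.7% and the first 500 held 69.1%. A share of 50% was reached with 75 rows in mcPCs and with 290 rows in VSMCs. Without mitochondrially encoded genes 417 rows were needed in mcPCs. At the other end, 12769 rows had at least 1 rescaled TPM, 7604 at least 10, 1066 at least 100 and 92 at least 1000. The boundary of the first 500 fell between LOC103694878, at 202.7 with an interval of 187 to 220, and Ndufa11, at 202.2 with an interval of 197 to 208. These neighbours could not be ordered at this depth.

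**Figure D1:**
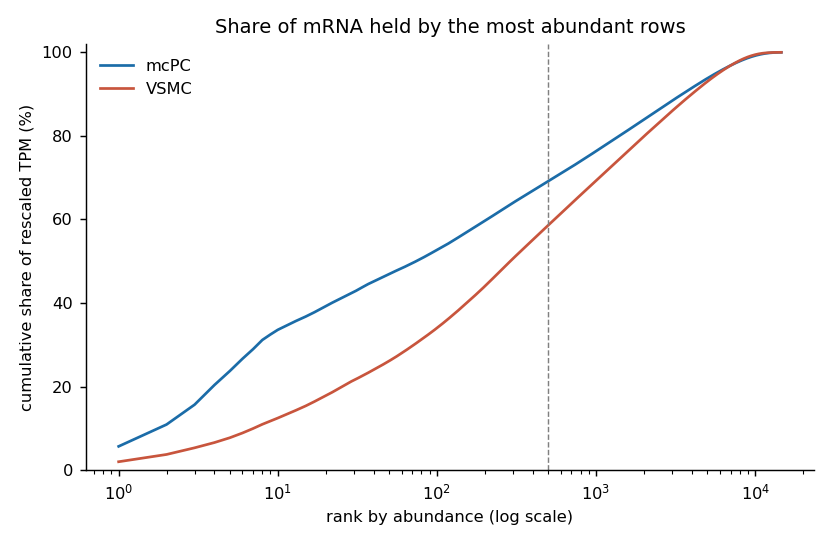
Cumulative share of rescaled TPM (percent, vertical) against abundance rank (log scale, horizontal) in the mean profile of mcPCs and of VSMCs, 3 samples each. The dashed line marks rank 500, where the mcPC curve has reached 69.1% and the VSMC curve 58.6%.

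The first 500 rows of mcPCs and of VSMCs had 332 rows in common, 66.4% of either list, and 326 when the 500 were drawn without mitochondrially encoded genes. Of the mcPC rows, 27 ranked below 5000 in VSMCs. These 27 included Kcnj8, Abcc9, Atp13a5, P2ry14, Slc22a8 and Slc6a13, which are on the list of pericyte genes, the matrix genes Htra3 and Col7a1, and also Alox15, Ucp2, Car2 and Tmcc2, which are abundant in red cell precursors, and the leukocyte genes Cd52 and Lyz2.

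Genes of the mitochondrial genome were the largest class in mcPCs. Its 13 rows, all among the first 500, held 35.2% of the rescaled TPM, beside 8.34% in VSMCs. Taken as reads, without division by length, the share was 18.5% in mcPCs and 3.54% in VSMCs. The 3 subunits of cytochrome c oxidase held 13.3%, the 2 of ATP synthase 10.4%, the 7 of complex I 8.56% and cytochrome b 2.92%. Mt-atp6 led the profile at 56808 rescaled TPM, followed by Mt-co1 at 52339 and Mt-atp8 at 47496. The level of Mt-atp8 rests on an effective length of 40.7 bases. Mt-nd5, the lowest of the 13, still ranked 28 with 2971. The rescaled TPM of each cell type has a fixed sum, so the larger mitochondrial share lowers the other mcPC values beside those of VSMCs. Shares and levels set beside VSMC values were not corrected for it.

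Respiratory chain genes of the nucleus had 29 of 94 rows among the first 500 and 1.90% of the rescaled TPM, beside 2.80% in VSMCs. Ndufa1 of complex I was at 1384, on an effective length of 44.0 bases, and Atp5b, the catalytic subunit of ATP synthase, at 907. Both Ndufa4l2 at 697 and Cox4i2 at 485 are subunits known to be induced by low oxygen. Higd1b, a small mitochondrial protein of the hypoxia-inducible domain family and a pericyte marker, reached 1109 in mcPCs and 94.1 in VSMCs. Mitochondrial ribosome, import and carrier genes added 0.727%, led by the glutathione carrier Slc25a39 at 1164, Tomm6 at 691 and the ATP/ADP carrier Slc25a4 at 284.

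Genes of protein synthesis were the next named class by TPM. Cytosolic ribosomal protein genes had 99 of 167 rows among the first 500 and 8.70% of the rescaled TPM, beside 9.52% in VSMCs. As reads, without division by length, these shares were 2.37% and 2.08%, under those of matrix (5.98%) and cytoskeleton genes (3.54%) in mcPCs. Rps29 led with 3652 on one of its rows and 2720 on the other, followed by Rpl41 at 3185 and Rpl37 at 1846. Of the 99 rows 24 carry a clone, LOC or RGD number, and reads of one protein can be split over such near-identical copies. Rplp2 and LOC100911575, for instance, were both listed at 860. Translation factors had 12 of 70 rows and 1.41%, with Tpt1 (translationally controlled tumor protein) at 5183, Eef1a1 at 2106 and Eef2 at 579.

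**Figure D2:**
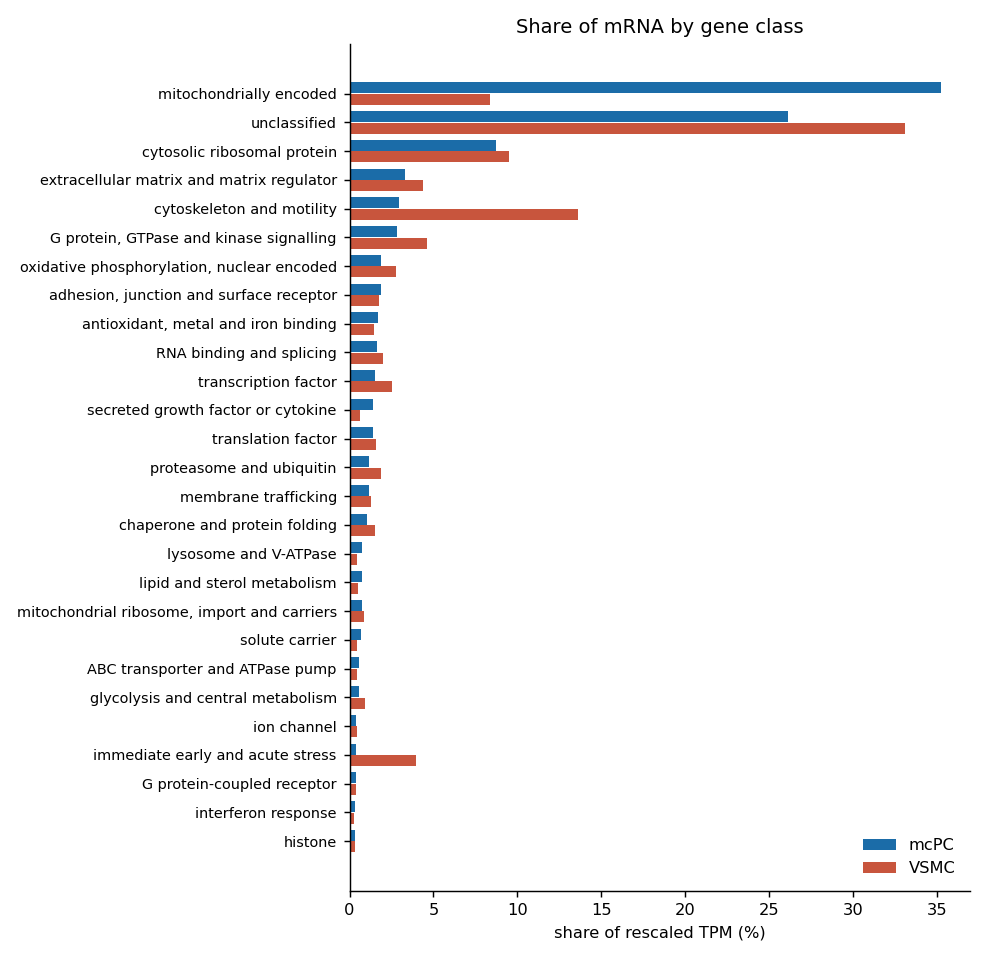
Share of rescaled TPM (percent, horizontal) held by each gene class with 4 or more rows among the 500 most abundant of mcPCs, in mcPCs and VSMCs, as authors' means over 3 samples each. Mitochondrially encoded genes held 35.2% in mcPCs and 8.34% in VSMCs, and cytoskeleton genes 2.95% and 13.6%.

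In the class of secreted growth factors and cytokines, 2 rows ranked high. Secreted matrix products, some of them at similar levels, were classed apart and follow below. Apoe, the apolipoprotein that carries lipid in brain, had the highest level of genes with a symbol outside the mitochondrial genome, at 5548 in mcPCs and 234 in VSMCs. The heparin-binding growth factor Ptn (pleiotrophin) reached 4965, beside 64.1 in VSMCs. Together with 150 further rows of growth factors, cytokines, complement and apolipoproteins they made up 1.41% of the mcPC profile and 0.599% of the VSMC profile. Apoe and Ptn held more than the 150 together, and the median row of the class was at 3.89. Among the first 500 were 5 of the 152 rows, or 3.29%, against 3.43% of all rows. The other 3 were Il34, a ligand of the microglial receptor Csf1r, at 342, Mif at 217 and Apold1 at 206. In VSMCs these were at 156, 182 and 1603. Apold1 entered the class by a match of its symbol or description, which does not show that it is secreted.

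Extracellular matrix and its regulators had 23 of 190 rows, 12.1%, among the first 500 and 3.29% of the rescaled TPM, beside 4.39% in VSMCs. Both shares are of a total that includes the mitochondrially encoded rows. Ranked by reads without division by length, 37 matrix rows were among the first 500. Igfbp7 was at 5116, the adhesive glycoprotein Vtn (vitronectin) at 4630, the collagen-binding protein Sparc at 4254, the protease inhibitor Cst3 (cystatin C) at 3160 and the calcification inhibitor Mgp at 2120. The median row of the class stood at 7.07, under the 10.9 of all rows, so a few products carried the class. In VSMCs Igfbp7 was at 4002, Sparc at 2576 and Vtn at 490. Htra3, a secreted protease, had 611 in mcPCs and 22.7 in VSMCs, and Spon2 had 289 and 5.09.

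Basement membrane genes gave 11 of 28 rows among the first 500, against 3.43% of all rows, and 19 of the 28 lay above the median of all rows. This list too was chosen with earlier results of these data known, so its counts are a description. The chains of the common collagen IV network, Col4a1 and Col4a2, were at 722 and 506, a ratio of 1.43. Of other collagen IV chains, Col4a4 was at 475, Col4a3 at 81.6 and Col4a5 at 9.88. Among laminin chains Lamc1 stood at 454, Lamb2 at 306, Lamc3 at 232 and Lama4 at 125. Lama2 was at 97.0, while Lama5 was at 8.08 and Lama3 at 0.685. Nidogens link laminin to collagen, and here Nid1 was at 458 and Nid2 at 76.9. The proteoglycan Agrn (agrin) was at 464 and Col7a1, an anchoring collagen, at 226. In VSMCs Lama5 was at 318, Lama3 at 80.1 and Col7a1 at 3.63, values that are given as a description only.

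Of the list of 60 pericyte and mural genes 58 had a row, and 37 of these were among the first 500, beside 3.43% of all rows. Their median was 305 in mcPCs and 126 in VSMCs. The list was drawn up with earlier results of these data known, so its count is a description. Rgs5, a regulator of G protein signalling found in mural cells, led the list at 5151 in mcPCs and 6366 in VSMCs. Pan-mural genes included Sparcl1 at 1153, Mcam at 831, Notch3 at 414 and Cspg4 at 288. Each of these had a larger rescaled TPM in VSMCs, without correction for the mitochondrial share. Pdgfrb, which the paper also counts as pan-mural, went the other way, with 1174 in mcPCs and 621 in VSMCs. Before the rescaling its mcPC value was 388 TPM, under that of VSMCs, so its direction depends on the rows left out. A second group had far larger values in mcPCs. Among them were the imino acid transporter relative RGD1566368 with 1359 in mcPCs and 10.1 in VSMCs, Slc22a8 with 599 and 3.66, and Slc6a13 with 399 and 3.09. Transcription factors of the list were lower than its leading members, but those named here lay above the median of all rows. Epas1 was at 424 and Zic1 at 204, both among the first 500. Heyl was at 198, Nr2f2 at 111, Tbx2 at 91.2, Ebf1 at 78.1, Tbx18 at 56.8 and Foxc1 at 40.8. The lowest members were Slc38a11 at 4.41, Ddit4l at 2.13 and Ednrb at 1.98.

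**Figure D3:**
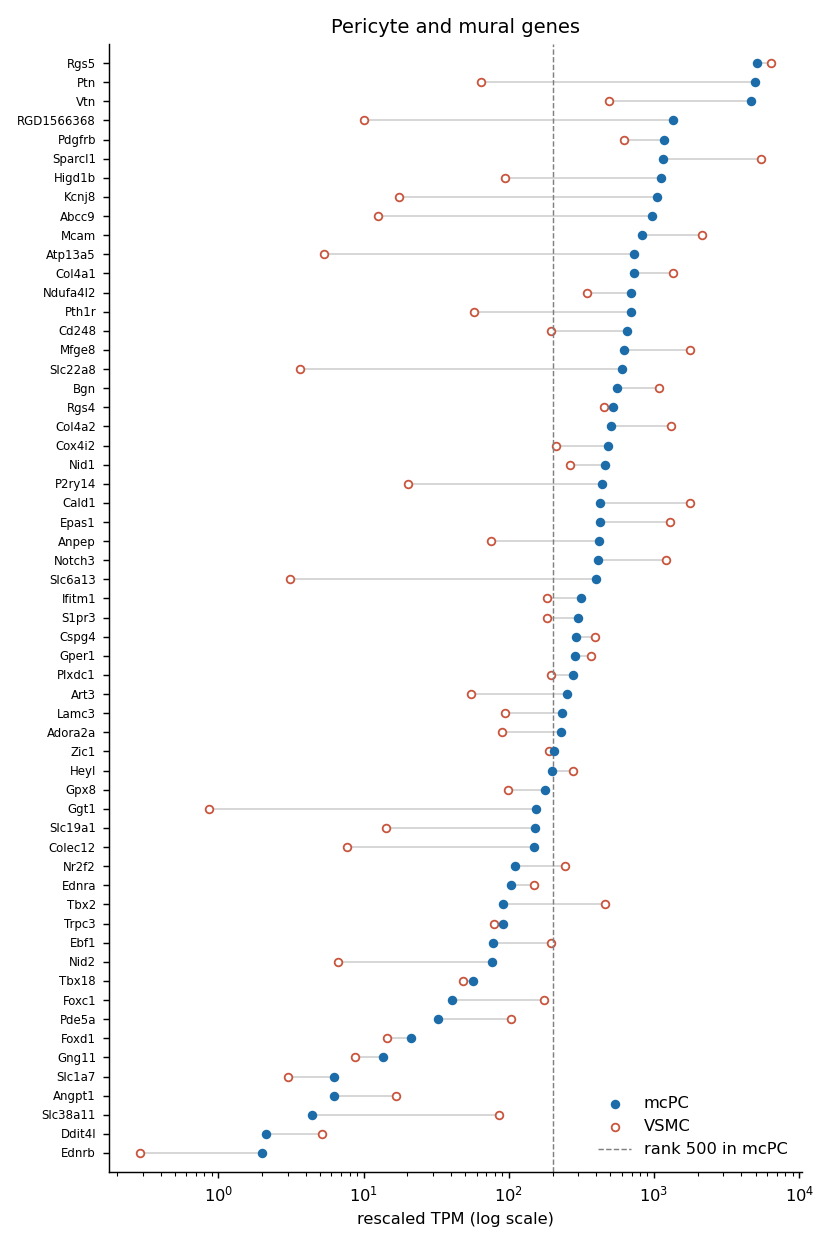
Rescaled TPM (log scale, horizontal) of the 58 pericyte and mural genes with a row, ordered by the mcPC value. Filled points are mcPCs, open points VSMCs, both authors' means over 3 samples, and the dashed line is the level at rank 500 in mcPCs. Rgs5, Ptn and Vtn lead, and 37 genes lie at or to the right of the line.

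Transport genes came to the following counts, to be read against the 3.43% of all rows. ABC transporters and ATPase pumps put 4 of 72 rows, or 5.56%, among the first 500, among them the sodium pump beta subunit Atp1b2 at 1055 besides Abcc9 and Atp13a5. Solute carriers put 6 of 226 rows there, or 2.65%, with a class share of 0.702% in mcPCs and 0.458% in VSMCs. Besides RGD1566368, the organic anion transporter Slc22a8 and the GABA transporter Slc6a13, these were Slc30a10, which exports manganese, at 290, the amino acid transporter heavy chain Slc3a2 at 266 and the iodide transporter Slc5a5 at 242. Ion channels put 4 of 179 rows there, or 2.23%. The connexins Gjc1 at 597 and Gja4 at 469 followed Kcnj8.

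The KATP channel subunits led the 13 genes of potassium control examined. The ratio of Kcnj8 to Abcc9 was 1.08. The other pore subunit, Kcnj11, was at 0.295 with 20 reads per sample, and the other sulfonylurea receptor, Abcc8, at 1.13 with 126. In VSMCs Kcnj11 was at 34.8 and Abcc8 at 24.1. Of the 13, only Kcne4 at 94.4, Kcnk3 at 24.9, Kcnj8 and Abcc9 exceeded 10 in mcPCs. Of potassium channel genes of smooth muscle, Kcna5 at 0.160 (interval 0.0974 to 0.246) and Kcnma1 at 0.181 were near the bottom of the mcPC order. Kcnmb1, the beta subunit that goes with Kcnma1, was at 3.45 (rank 10647).

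Within some other gene families one member made up most of the mRNA in mcPCs, while in others members shared it more evenly. These families were picked after their values had been seen. Atp1b2 was 82.6% of the sodium pump beta mRNA, where VSMCs had 48.0% in Atp1b1 and 43.6% in Atp1b2. Ndufa4l2 was 95.9% of its pair with Ndufa4 and 72.2% in VSMCs. Cox4i2 was 46.5% of the cytochrome c oxidase subunit 4 mRNA in mcPCs and 19.8% in VSMCs. Epas1 (HIF-2 alpha) was 92.1% of HIF alpha mRNA in mcPCs and 94.3% in VSMCs. Ldhb was 46.0% of lactate dehydrogenase mRNA and 19.7% in VSMCs. The insulin-responsive glucose transporter Slc2a4 was 59.8% of 3 glucose transporters compared in mcPCs and 42.5% in VSMCs.

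**Figure D4:**
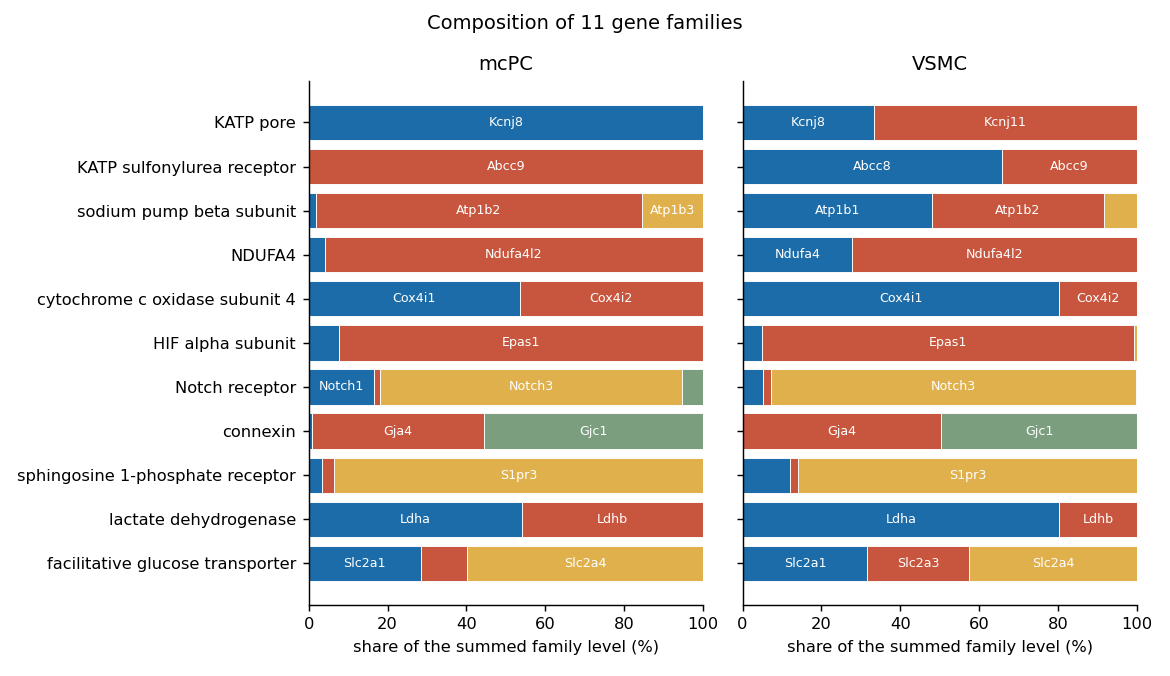
Composition of 11 gene families, chosen after their values were seen, as the share of the summed rescaled TPM (percent, horizontal) held by each member, for mcPCs (left) and VSMCs (right). Kcnj8 and Abcc9 fill the KATP bars of mcPCs, while Kcnj11 holds 66.7% and Abcc8 65.7% in VSMCs.

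Receptors and adhesion molecules followed. The class of adhesion, junction and surface receptor genes had 23 of 373 rows among the first 500 and a share of 1.86% in mcPCs and 1.77% in VSMCs, led by the tetraspanin Cd81 at 1307, then Pdgfrb, Mcam and Cd63 at 825. Of 39 genes with a row on the list of cell surface receptors 6 were among the first 500, against 3.43% of all rows. Pth1r, the parathyroid hormone receptor, was at 691 in mcPCs and 57.3 in VSMCs, P2ry14, the receptor of UDP-glucose, at 439 and 20.3, and Adora2a, an adenosine receptor, at 227 and 89.3. S1pr3 was at 297 and made up 93.5% of the 3 sphingosine 1-phosphate receptors compared, and 85.9% in VSMCs. Endothelin receptor Ednra was at 103 and angiotensin receptor Agtr1a at 0.224. The adenosine receptor Adora2b was at 37.4 and the prostacyclin receptor Ptgir at 16.2.

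Lysosome and V-ATPase genes had 10 of 59 rows, 16.9%, among the first 500, against 3.43% of all rows. They held 0.761% of the rescaled TPM, beside 0.460% in VSMCs. The cathepsin Ctsb was at 1130, Laptm4a at 840, the saposin precursor Psap at 611 and Lamp1 at 606. Among 23 scavenger and endocytic receptor genes, 18 exceeded 10 and 3 were in the first 500, namely Cd63, Ager (the receptor for advanced glycation end products) at 606 and Lrpap1, the chaperone of LDL receptor relatives, at 441. Colec12 was at 150 and Lrp1 at 78.8. Of antioxidant and iron-binding genes 11 of 66 were among the first 500, with the ferritin chains Ftl1 at 4884 and Fth1 at 3633 ahead of Prdx2 at 1762.

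Paracrine signals other than Ptn and Il34 were lower. Tgfb1 stood at 180, Igf2 at 92.6, the pleiotrophin relative Mdk at 60.7, Cxcl12 at 56.9 and Ntn1 (netrin 1) at 54.9. Vegfa was at 28.9 and Angpt1 at 6.23. Of the 41 genes of the list with a row 22 exceeded 10 and 5 were under 1.

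Cytoskeleton and motility genes had 34 of 264 rows in the first 500 and 2.95% of the rescaled TPM, beside 13.6% in VSMCs, with septin Sept4 at 2659, Actb at 2086 and Tmsb4x at 1956 on top. The 17 contractile smooth muscle genes with a row summed to 1160 in mcPCs and 70122 in VSMCs. Only Myl9, at 595, was in the first 500. Acta2, smooth muscle actin, was at 61.1, Tagln at 68.6, Myh11 at 13.9 and Cnn1 at 1.25. Immediate early and acute stress genes held 0.381% in mcPCs and 3.95% in VSMCs, and Zfp36, an early response gene, was at 210 and 4198. The arterioles were dissociated by a harsher enzyme step than the filtrate, and its part in these values was not tested.

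Among signalling genes, the class of G proteins, GTPases and kinases had 19 of 589 rows in the first 500, 3.23%, near the 3.43% of all rows. After Rgs5 came Gnas at 778, Rgs4 at 517, Arhgdib at 481 and Rhoa at 447. Transcription factors had 7 of 936 rows there, or 0.748%, with Epas1 first, Tsc22d1 at 348 and Cnbp at 266 next. RNA binding and splicing genes had 11 of 214, with Ybx3 at 3204, Ddx39b at 636 and Hnrnpa2b1 at 524. Chaperones had 11 of 127, with Ppia at 1324, Sec61g at 843 and Hsp90ab1 at 669. Membrane trafficking genes had 5 of 208, among them the 3 Itm2 genes, Itm2b at 1658, Itm2a at 1136 and Itm2c at 842. Proteasome and ubiquitin genes had 6 of 305, with Sumo2 at 592, Rnf10 at 579 and Nedd8 at 454. Glycolysis and central metabolism had 5 of 58, with Aldoa at 849, the glutamine synthetase Glul at 647 and Gapdh at 398.

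Some rows at the top of the order are uncertain. Clone, LOC or RGD numbers named 69 of the first 500 rows, among them AABR07029741.1 at 7815 (rank 11), which has no description. There were 5 clone-named rows, AABR07015055.1 among them, with 2845 each and 14527 to 14528 reads per sample. Rows of near-identical copies can share reads, so none of these 5 levels stands for a gene of its own. Effective lengths under 100 bases, where the division by length is least certain, applied to 184 rows, of which 37 were among the first 500. The 184 rows held 8.02% of the rescaled TPM. Of rows named above, they include Mt-atp8, Ndufa1, Tomm6 (49.0 bases), Sumo2 (85.3 bases) and the lower Rps29 row (31.2 bases).

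Some of the abundant rows are best known from other cells. Of 40 further red cell genes 30 had a row, summing to 4209 in mcPCs and 382 in VSMCs. Against 3.43% of all rows, 5 of the 30 were among the first 500. These were Bpgm, which makes the hemoglobin ligand bisphosphoglycerate, at 1182, Car2 at 526, Tmcc2 at 403, Mkrn1 at 395 and Bnip3l at 311. Genes picked from the abundance order because red cell precursors are rich in them, such as Alox15 at 2950, Ucp2 at 1265 and Lgals5 at 1055, made up 2.16% of the rescaled TPM as a group of 11, beside 0.202% in VSMCs. That group also holds Ftl1, Prdx2, Slc25a39, Rnf10 and Ybx3, named above by class, so the part of red cells in those levels was not tested.

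Leukocyte genes were present as well. In the T and NK lymphocyte list 10 of 22 genes had a row, with a summed level of 893 in mcPCs and 9.21 in VSMCs. Cd52 was at 467, Coro1a at 153, Zap70 at 61.2, Cd8a at 33.1 and Cd4 at 8.59. Lyz2 (lysozyme) was at 396, but the microglial genes Csf1r, C1qa, Cx3cr1 and Tmem119 were at 11.9, 6.90, 2.96 and 1.23. The 2 B cell genes with a row, Fcrla and Blk, were at 4.96 and 1.93, and 5 of 16 neutrophil genes had a row, with S100a9 at 25.6.

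Marker lists of endothelium, glia and neurons differed in their place. Above the median of all rows were 10 of 26 endothelial rows, 4 of 10 astrocyte rows, 2 of 8 oligodendrocyte rows, 0 of 10 rows of mature neurons and 9 of 12 rows of immature neurons. The median of the immature neuron list was 24.2. Itm2a at 1136, Esam at 556 and Bsg at 503 led the endothelial list, and in VSMCs these had 147, 493 and 378. The defining endothelial genes Cldn5, Vwf, Cdh5 and Kdr were at 46.7, 24.3, 4.46 and 2.27. Astrocyte markers Slc1a3, Gfap and Aqp4 were at 38.3, 0.816 and 0.262, while Glul at 647 and Vim at 415 are not limited to astrocytes. Oligodendrocyte genes summed to 81.4 over 8 rows and those of mature neurons to 37.7 over 10. Among genes of immature neurons Stmn1 was at 195, Tubb2b at 82.4, Tubb3 at 47.6 and Dcx at 6.51. Of genes of fibroblasts, another perivascular cell, Slc6a13 was noted above, Col3a1 was at 171, Apod at 156, Col1a1 at 95.5, Dcn at 51.1 and Lum at 14.7. Proliferation genes such as Mki67 and Top2a were at 13.7 and 12.8. The part that such cells play in the levels of the mcPC profile was not tested.

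**Figure D5:**
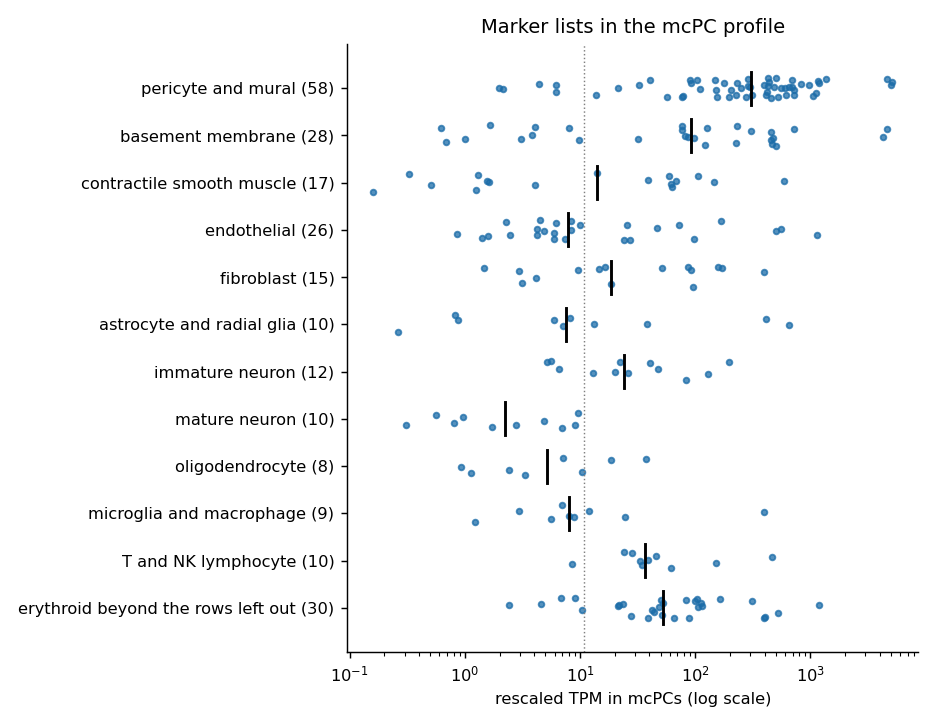
Rescaled TPM in mcPCs (log scale, horizontal) of each gene with a row in 12 marker lists, with the number of rows in parentheses. Black bars are list medians and the dotted line is the median of all rows, 10.9. The pericyte and mural list has a median of 305, and that of mature neurons 2.24.

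Rows under 0.8 TPM in VSMCs were kept here. The table itself holds only genes with a read in every sample, VSMCs included, so a gene read in mcPCs alone has no place in the order or in the sums of lists. Among marker genes, Pecam1 and P2ry12 had no row. The rows under 0.8 TPM in VSMCs numbered 2389 and held 0.859% of the rescaled TPM of mcPCs. Their median was 0.775, and 1047 had at least 1 and 149 at least 10. Only Lyz2 and Emb (embigin, at 214) were among the first 500. The 20 most abundant included many genes known from blood cells, such as Plac8 at 134, Laptm5 at 115, Hemgn at 112, Rgs1 at 99.3, Klrb1b at 89.2, Lsp1 at 87.5, Kel at 65.4, Ctsw at 61.7 and Gzmm at 60.2, besides Coro1a and Zap70. Add2, at 88.6, is on the red cell list and Tubb2b on that of immature neurons. Rsad2, an interferon-induced gene, was at 99.8, the prostaglandin D2 receptor Ptgdr2 at 91.3 and the MHC class II chain RT1-Da at 89.5. Of the 58 pericyte and mural genes only Ednrb, at 1.98 in mcPCs and 0.289 in VSMCs, was under 0.8 TPM in VSMCs. That none of the 58 is among these 20 was thus set by the choice of the list.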

How the data were processed

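Messenger RNA (polyA+) of 3 mcPC and 3 VSMC samples was sequenced from stranded TruSeq libraries, each in 4 runs. After trimming and filtering in Eoulsan, the authors quantified reads with Salmon 0.8.0 against Ensembl transcripts of the Rnor_6.0 assembly, took sums per gene (tximport) and dropped genes lacking a read in any sample. The TPM values deposited by the authors are means of each cell type. The estimated counts deposited by the authors were taken as means per run over the 12 runs of a cell type and multiplied by 4 to give reads per sample. Of those of mcPCs 71.5% were whole multiples of a read over the runs within 0.01 read. Means per sample would pass that check too, so it cannot tell them apart. The factor brings the totals closer to the mean read number per sample that the paper states. Reads per sample and the intervals rest on this reading. Mean effective lengths per gene were also deposited by the authors. Their normalized counts, fold changes, standard errors and p-values, which hold the comparison of both cell types, were not used.

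Rows whose description names hemoglobin or globin, and Alas2, Slc4a1 and Ahsp, were left out. The rest was rescaled to 1000000 and ranked, with no filter. Each row was put in the first class whose pattern its symbol or description matched. A word of the class patterns was corrected after the data were seen, which moved Cybrd1 out of mitochondrially encoded genes and Zdhhc1 out of transcription factors. The genes named are the 5 markers, the 20 most abundant rows outside ribosomal protein and mitochondrially encoded genes, the leading rows of each class with at least 5 rows among the first 500, the 20 most abundant rows under 0.8 TPM in VSMCs, the leading members of the lists (pericyte and mural, basement membrane, potassium control, scavenger and endocytic receptors, paracrine signals, cell surface receptors), the leading and defining members of lists of other cell types, and the rows at ranks 500 and 501. Some genes that the rule would name are not reported here. The members and lists were chosen with earlier results of these data known. Marker lists of oligodendrocyte precursors, platelets and ependymal cells had 5, 7 and 6 rows, with summed levels of 14.3, 37.7 and 6.20 rescaled TPM in mcPCs. Intervals are exact Poisson intervals at 95% on the reads of the 3 samples together and cover counting error only. With 1 mean per cell type no test was run, and no replicate could be left out. Promoter windows are those of RefSeq for GRCr8, matched by symbol, and no coordinate was converted between assemblies. Rescaling and ranking were tested on simulated data. The software was matplotlib 3.10.9, pandas 2.3.3, scipy 1.17.1 and numpy 2.4.6 under Python 3.11.15.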

Additional observations from a re-analysis of the deposited data

How the results depend on the processing

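Each of the 8 summary values was recomputed under 9 other settings, of which the last 2 below were chosen after seeing the data. Counts of pericyte markers among the first 500 stayed at 4 in every setting, and those of matrix genes stayed within 1.5 times except without division by length, where 37 rather than 23 matrix rows were among the first 500 and 291 of the first 500 were kept. Shares are given as those of the first 500, of cytosolic ribosomal protein genes and of mitochondrially encoded genes. With no row left out they were 89.7%, 2.88% and 11.7%, and 3 rows held 50%. Without division by length they were 52.5%, 2.37% and 18.5%, and 406 rows held 50%. Leaving out mitochondrially encoded and ribosomal protein genes gave 49.3% for the first 500, 526 rows for 50%, and no value for those classes. The other settings moved shares by little, and the counting error of a share of TPM was not worked out. Without the further erythroid list they were 69.3%, 8.74% and 35.4%, and from counts over mean length 68.6%, 8.81% and 33.9%. With at least 0.8 TPM in VSMCs they were 69.7%, 8.77% and 35.5%, and 0 of the first 500 were then under 0.8 TPM in VSMCs, by construction. With at least 10 reads a mcPC sample they were 69.2%, 8.70% and 35.2%. Without effective lengths under 100 bases they were 67.9%, 8.66% and 32.4%, and without the erythroid list and 11 further reticulocyte genes 68.8%, 8.93% and 36.1%.

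No paired analysis was possible because only means of each cell type were used and no result comes from a test. Leaving out each replicate in turn was not run for the same reason. The spread between the 3 isolations is therefore unknown, and a level is known only to counting error and the quantifier's assignment of reads.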
